A study of Homo sapiens with 6 samples.

Results

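The tensins, the kindlins and 4 partner adaptors of the focal adhesion were followed through the knockdown of ARMC5 in DLD-1 cells, a human colorectal adenocarcinoma line. They were chosen by name, with earlier results of these data known, so the share of them that passed the test is not independent evidence. The set held 4 tensins (TNS1, TNS2, TNS3 and TNS4), 2 kindlins (FERMT1 and FERMT2), and talin (TLN1), paxillin (PXN), vinculin (VCL) and zyxin (ZYX). These are 10 of the 35810 genes with an entry in the tables, and all 10 had enough reads to be tested. TNS4 is also a gene that the study labelled on a plot of these same libraries, so its change here is not independent evidence.

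Poly(A)+ RNA-seq was done on 6 libraries. In 3 of them (shARMC5) the cells carried a lentiviral short hairpin RNA against ARMC5, and in the other 3 (shNT) a non-targeting hairpin, after infection and puromycin selection. The genotype of both groups was SPT5-AID: SPT5, an elongation factor of RNA polymerase II (Pol II), carries an auxin-inducible degron tag, whose ligand, auxin, is named in none of the 6 labels. ARMC5 is an adaptor of the CUL3 ubiquitin ligase, which acts on the largest subunit of Pol II. The comparison asks which transcripts differ when ARMC5 is knocked down and SPT5 is still present. The methods list more than 1 hairpin for ARMC5 and do not say which was sequenced, so an effect of the hairpin itself and of less ARMC5 cannot be told apart.

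Library depth ran from 26201112 to 40866478 estimated reads. ARMC5 itself was measured at 10.8, 12.0 and 12.9 CPM (counts scaled to a common library total) in the shARMC5 libraries and at 23.0, 25.9 and 26.7 CPM in the shNT libraries. The groups did not overlap, and the log2 fold change was -1.09 (SE 0.08, edgeR adjusted P = 5.32e-07). Of 13737 genes tested with edgeR's quasi-likelihood test, 1064 passed an adjusted P of 0.1 (7.75%), 610 of them higher in shARMC5 (4.44%) and 454 lower (3.3%). The median log2 fold change of all tested genes was -0.0014. Markers of other cell types were low: the summed level of 11 fibroblast and smooth muscle markers was 4.09 to 5.64 TPM (a level scaled by transcript length) in shARMC5 and 5.45 to 6.21 in shNT, with COL3A1, DES, LUM and THY1 at 0 in every library and most of the sum in ACTA2 (2.91 to 4.61 TPM over the 6 libraries). The 7 leukocyte and endothelial markers summed to 1.56 to 2.07 and 1.73 to 2.53 TPM, with CD3E and CDH5 among those at 0 and most of the sum in CD68 (1.39 to 2.29 TPM). Of the 10 epithelial markers 9 had an entry (KRT20 was not analysed here), and their sum was 8771 to 9085 TPM in shARMC5 against 7770 to 8304 TPM in shNT. Among them KRT18 (log2 fold change 0.25), KRT8 (0.18) and KRT19 (0.11) rose and VIL1 (-1.30), an actin-bundling protein of microvilli, fell. These were 4 of the 8 epithelial markers tested (50%, against 7.75% of all tested genes), and the other 4 did not pass. The median log2 fold change of the 8 was 0.02. KRT19 did not pass when the average transcript length was entered as an offset (0.10, edgeR adjusted P = 0.124). The part of these epithelial shifts in the results below was not tested.

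Focal adhesions are the sites where integrins, receptors for the extracellular matrix, are tied to actin filaments. Talin and the kindlins bind the cytoplasmic tail of integrin beta subunits and switch the receptor to its active form. Vinculin binds talin and actin and strengthens the link under force, paxillin is a scaffold for kinases and other adaptors, and zyxin, a LIM domain protein, joins adhesions and stress fibres under tension. Tensins bind integrin tails through a phosphotyrosine-binding domain and carry an SH2 domain. TNS1, TNS2 and TNS3 also have a long amino-terminal part, through which tensins bind actin, whereas TNS4 (CTEN) is short and lacks it.

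Levels between genes were compared per transcript length, in TPM. In the shNT libraries PXN had the highest mean, 107.6 ± 7.24 TPM (SD, n = 3), followed by VCL at 103.5 ± 5.72 TPM, and the gap between them was smaller than the sum of their SDs. ZYX followed at 84.1 ± 2.89 TPM, TNS4 at 61.4 ± 2.79 TPM and TLN1 at 53.6 ± 4.03 TPM, each apart from its neighbours by more than that sum. TNS3 had 38.2 ± 2.59 TPM and FERMT1 26.0 ± 0.41 TPM. TNS2 was at 5.84 ± 0.73 TPM, whereas TNS1, at 0.60 ± 0.29 TPM, and FERMT2, at 0.20 ± 0.13 TPM, were not apart from each other. The line therefore held TNS4 and TNS3 as its main tensin messages and FERMT1, the kindlin of epithelia, as its main kindlin message. In shARMC5 VCL (112.4 ± 6.09 TPM) and PXN (108.7 ± 4.61 TPM) changed places, again without being apart, and the order of the other 8 genes was the same.

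**Figure D1:**
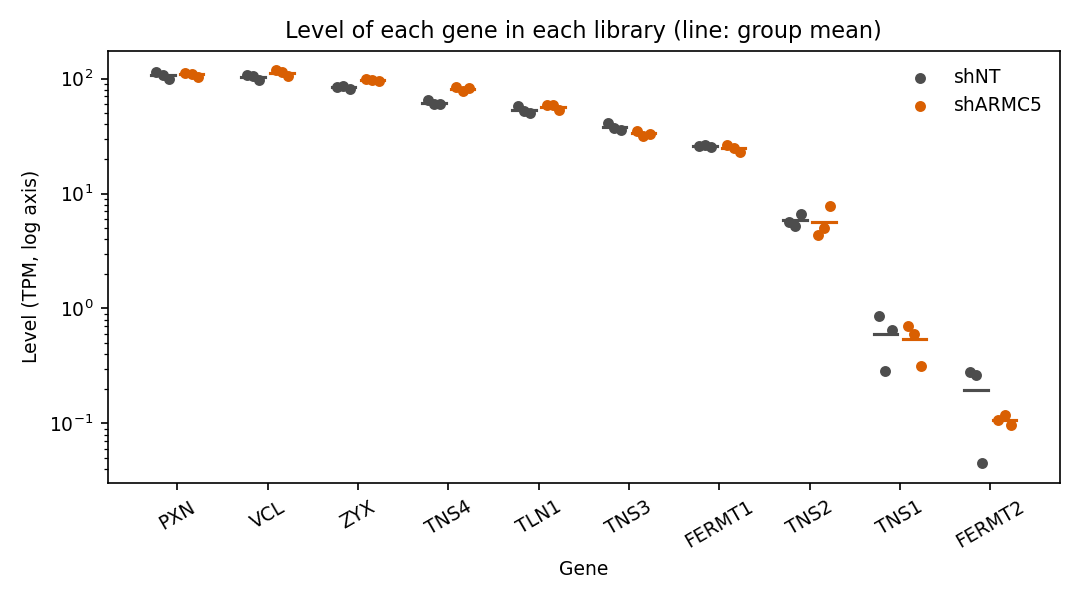
Level of the 10 genes in each library, in TPM on a log axis, with shNT in grey, shARMC5 in orange and the mean of the 3 libraries of a group as a line. All genes from PXN to FERMT1 on the axis lie between 22.9 and 118 TPM in every library, TNS2 lies between 4.36 and 7.75 TPM, and TNS1 and FERMT2 stay below 1 TPM.

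Of the 10 genes, 4 passed the test (40%, against 7.75% of all tested genes): TNS4, VCL and ZYX were higher in shARMC5 and TNS3 was lower. The median log2 fold change of the 10 was -0.05. In each of these 4 genes all libraries of one group lay above all libraries of the other, as they did in 23.4% of all tested genes, and the other 6 genes overlapped. In bulk RNA, fewer cells that express a gene and less of its RNA per cell cannot be told apart, and this holds for all differences given here. With 3 libraries against 3, the two-sided exact permutation test of a single gene cannot go below P = 0.1, which is the value it gave for each of the 4 genes.

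TNS4 changed most among them. Its TMM-normalized level was 230.6, 212.2 and 219.8 CPM in shARMC5 and 162.3, 161.0 and 160.0 CPM in shNT. The 3 shNT libraries were nearly identical, and the lowest shARMC5 library stood well above them. The means were 220.8 ± 9.26 and 161.1 ± 1.18 CPM, 37.1% more in shARMC5. The log2 fold change was 0.45 (SE 0.03, 95% interval 0.39 to 0.52, edgeR adjusted P = 3.18e-07), which placed TNS4 at rank 6 of all 13737 genes by P, with ARMC5 at rank 8. In TPM the means were 81.7 ± 3.48 and 61.4 ± 2.79.

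TNS3, the other abundant tensin, fell. Its level was 181.4, 168.9 and 169.7 CPM in shARMC5 against 198.8, 188.2 and 189.6 CPM in shNT. The highest shARMC5 library came within a few CPM of the lowest shNT library without reaching it. The log2 fold change was -0.15 (SE 0.03, 95% interval -0.22 to -0.08, edgeR adjusted P = 0.0156). The call was lost without shARMC5 replicate 2 (log2 fold change -0.13, adjusted P = 0.101) and without shNT replicate 1 (-0.12, adjusted P = 0.104), and also when the average transcript length was entered as an offset (-0.18, adjusted P = 0.13).

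The balance of the tensins moved with both genes. TNS4 made up 68.0, 67.5 and 66.6% of the summed tensin TPM in the shARMC5 libraries and 57.6, 58.3 and 57.9% in the shNT libraries. TNS3 made up 28.0, 27.6 and 26.9% against 36.6, 36.3 and 35.0%. The ratio of TNS4 to TNS3, taken within each library in TPM, was 2.43, 2.45 and 2.48 in shARMC5 and 1.57, 1.60 and 1.65 in shNT. The sum of the 4 tensins was 121.3 ± 5.01 TPM and 106.0 ± 5.32 TPM (SD, n = 3). These shares are a description and were given no test of their own.

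The remaining tensins were low and did not pass the test. TNS2 was at 9.87, 10.1 and 10.9 CPM in shARMC5 and at 11.7, 9.96 and 10.5 CPM in shNT, from 275 to 400 reads per library. Its log2 fold change was -0.06 (95% interval -0.26 to 0.14, edgeR adjusted P = 0.792). TNS1 rested on 27 to 47 reads per library. It stood at 1.32, 1.12 and 1.07 CPM in shARMC5 against 1.44, 1.08 and 1.14 CPM in shNT, and its interval, -0.64 to 0.52, leaves a change of the size seen for TNS4 undetectable at this depth.

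**Figure D2:**
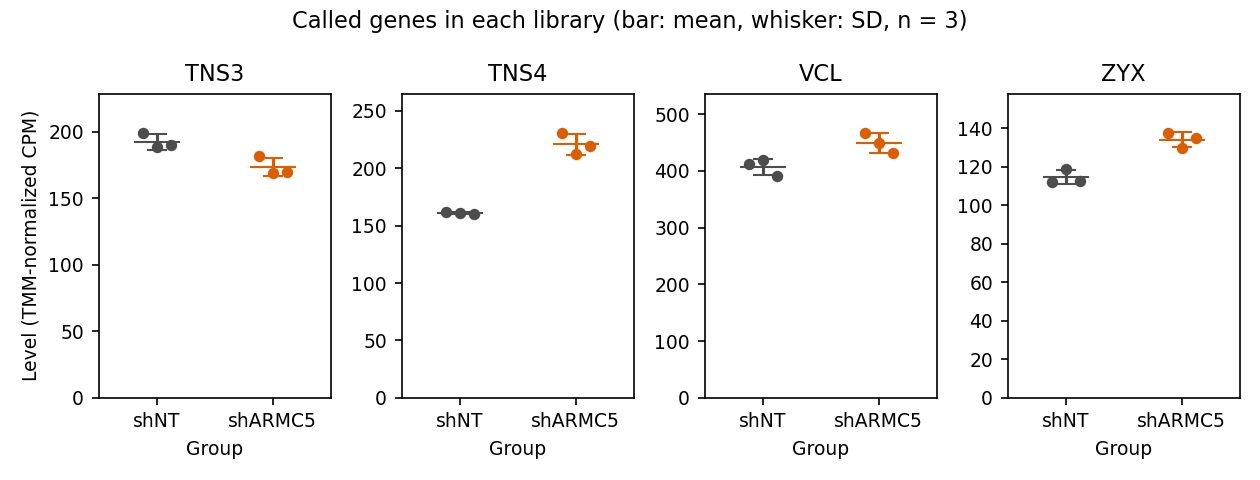
Level of TNS3, TNS4, VCL and ZYX in each library, in TMM-normalized CPM on axes that start at 0, with the mean as a bar and the SD as whiskers (n = 3 per group). In each panel the 3 shARMC5 points (orange) and the 3 shNT points (grey) do not overlap, and the gap is widest for TNS4, from 162.3 to 212.2 CPM.

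Among the genes that bind and activate integrins, none passed. FERMT1 (kindlin-1) was at 84.3, 79.6 and 75.7 CPM in shARMC5 and at 84.1, 89.3 and 84.2 CPM in shNT. One shARMC5 library lay inside the shNT range and the other 2 lay under it. The log2 fold change was -0.10 (SE 0.04, 95% interval -0.19 to -0.01), with an unadjusted P of 0.0263 and an edgeR adjusted P of 0.199. Without shARMC5 replicate 1, the library inside the shNT range, the log2 fold change was -0.14 and the adjusted P 0.0910, and without shARMC5 replicate 3 they were -0.07 and 0.488. With the length offset they were -0.06 and 0.708. FERMT2 (kindlin-2), the kindlin of mesenchymal cells, had 5 to 23 reads per library. It was at 0.165, 0.304 and 0.198 CPM against 0.459, 0.709 and 0.178 CPM. The log2 fold change was -0.98, with an interval from -2.13 to 0.16. It was -0.50 without shNT replicate 2 and -1.34 without shNT replicate 3, so neither a loss nor an equal level could be shown.

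TLN1 had 278.8, 272.3 and 243.3 CPM in shARMC5 and 293.2, 263.3 and 264.5 CPM in shNT. The groups overlapped, and 1 library in each group stood away from its other 2, low in shARMC5 and high in shNT. The log2 fold change was -0.05 (SE 0.07, 95% interval -0.23 to 0.13, edgeR adjusted P = 0.804). In TPM the order of the means was the other way round, at 57.1 ± 3.22 in shARMC5 and 53.6 ± 4.03 in shNT. A gene's TPM also moves with how its reads are divided among transcripts of unlike length. The full-length coding transcript ENST00000314888 (8623 bases) had 8334, 10576 and 6020 reads in shARMC5 and 9486, 8456 and 7334 reads in shNT. The retained-intron transcript ENST00000466916, only 446 bases long, had 86.3, 111.5 and 73.9 reads against 49.4, 64.2 and 48.7, yet made up 23.1, 22.8 and 25.5% of TLN1 TPM against 12.9, 18.3 and 15.9%. The log2 fold change of this short transcript was 0.72 (SE 0.25, edgeR adjusted P over all transcripts 0.922).

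**Figure D3:**
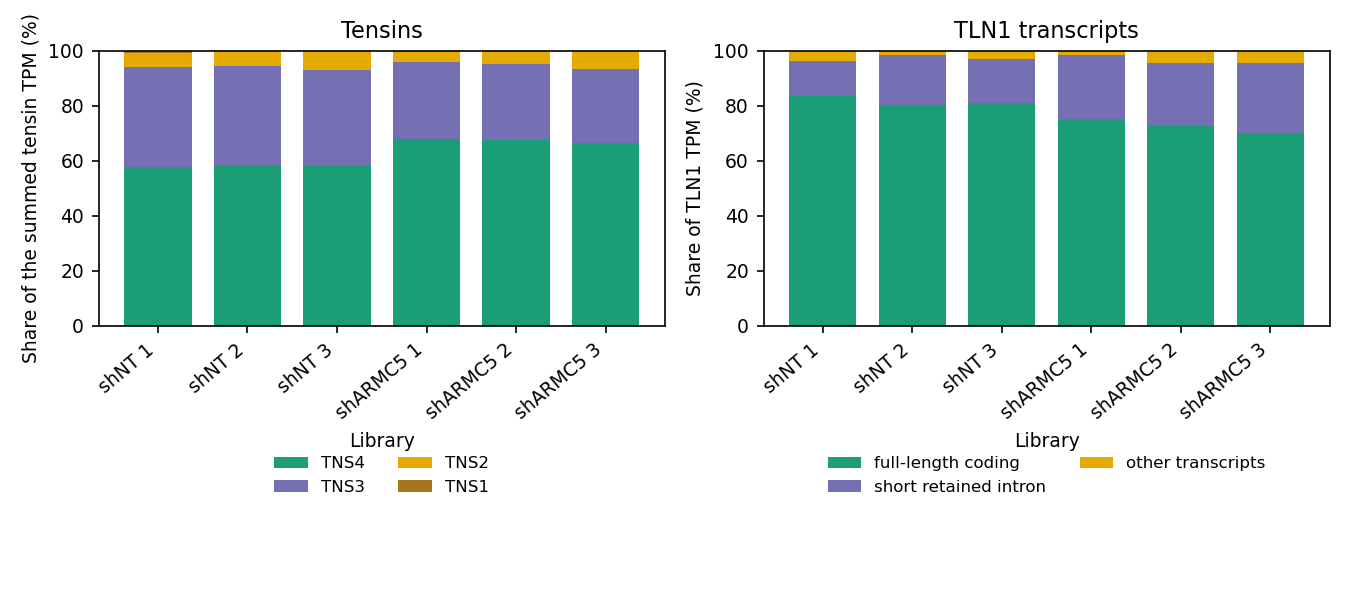
Left, share of each tensin in the summed tensin TPM of each library; right, share of the full-length coding transcript, the short retained-intron transcript and all others in TLN1 TPM, both in percent. TNS4 takes 66.6 to 68.0% in shARMC5 and 57.6 to 58.3% in shNT, and the short TLN1 transcript takes 22.8 to 25.5% against 12.9 to 18.3%.

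Of the proteins that connect talin to actin and to signalling, vinculin and zyxin rose and paxillin did not pass the test. VCL was at 466.7, 448.8 and 432.1 CPM in shARMC5 and at 411.7, 418.7 and 390.3 CPM in shNT, on 10897 to 17702 reads. All shARMC5 libraries were above all shNT libraries, by a narrow margin between the nearest 2. The means were 449.2 ± 17.3 and 406.9 ± 14.8 CPM, and the log2 fold change was 0.14 (SE 0.03, 95% interval 0.07 to 0.21, edgeR adjusted P = 0.0204). The call held with each single library left out (highest adjusted P 0.0957) and was lost with the length offset (0.14, adjusted P = 0.151).

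ZYX was at 137.5, 129.9 and 135.2 CPM in shARMC5 and at 112.2, 119.0 and 112.8 CPM in shNT. The groups were well apart, and 1 shNT library stood somewhat above its other 2. The means were 134.2 ± 3.86 and 114.7 ± 3.75 CPM, and the log2 fold change was 0.23 (SE 0.03, 95% interval 0.15 to 0.30, edgeR adjusted P = 0.000874). PXN was at 226.5, 222.5 and 222.4 CPM in shARMC5 and at 214.0, 227.8 and 217.3 CPM in shNT, with the shARMC5 libraries inside the shNT range. Its log2 fold change of 0.03 (95% interval -0.04 to 0.09, edgeR adjusted P = 0.696) leaves room for a change no larger than 0.09 in either direction at this confidence.

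**Figure D4:**
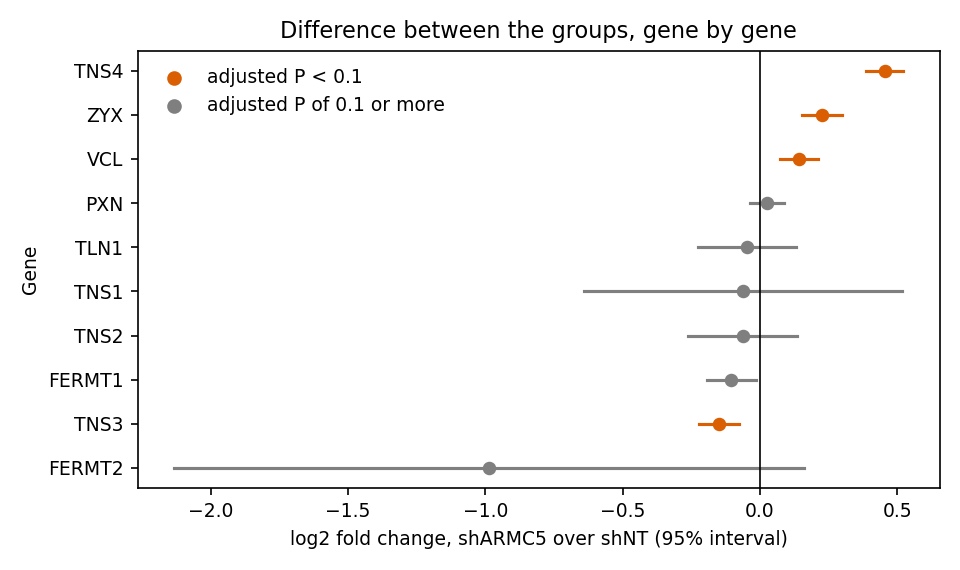
log2 fold change of the 10 genes, shARMC5 over shNT, with 95% intervals from edgeR's quasi-likelihood fit and genes with an adjusted P under 0.1 in orange. TNS4 (0.45), ZYX (0.23) and VCL (0.14) lie to the right of 0 and TNS3 (-0.15) to the left, while the widest interval is that of FERMT2, from -2.13 to 0.16.

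The tables held 123 transcripts of the 10 genes, of which 38 were tested as transcripts. None passed an adjusted P of 0.1 in edgeR, where 4 of 51892 transcripts did in all (0.00771%), and 9 of the 38 (23.7%) had an unadjusted P under 0.05, against 2493 (4.80%) of all tested transcripts. For the 4 called genes the reads lay mostly on 1 long coding transcript. For TNS4 this was ENST00000254051 (4087 bases), with 89.0 to 92.9% of TNS4 TPM in shARMC5 and 88.9 to 91.8% in shNT. Its log2 fold change was 0.46 (SE 0.04, adjusted P = 0.119), near that of the gene, and the adjusted P was 0.0660 when only transcripts that reached 50 reads in 3 libraries were kept. The main transcripts of ZYX (ENST00000322764, 0.26, adjusted P = 0.242) and TNS3 (ENST00000311160, -0.14, adjusted P = 0.602) also had values close to those of their genes without passing.

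In VCL the 2 transcripts with most reads code for different proteins. The transcripts ENST00000211998 and ENST00000372755 differ in exon 19, a coding exon of 204 bases that is present only in the first and makes metavinculin, the form of vinculin known from muscle. Its sequence, at chr10:74111909-74112112 on the plus strand of GRCh38, is shown because it is the only coding difference between the 2 transcripts.
VCL exon 19: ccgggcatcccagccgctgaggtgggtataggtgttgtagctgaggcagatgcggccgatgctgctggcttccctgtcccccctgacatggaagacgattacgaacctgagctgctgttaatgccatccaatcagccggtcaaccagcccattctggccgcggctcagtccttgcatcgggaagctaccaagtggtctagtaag
The transcript with this exon was assigned 8759 to 14622 reads per library and 83.2 ± 1.98% of VCL TPM in shNT and 84.0 ± 0.11% in shARMC5. The transcript without it was assigned 1953 to 3056 reads, but it also has 1194 more bases after the stop codon, and salmon divides reads of the shared exons by all such differences. Reads across exon 19 itself were not counted apart, so the shares do not give the level of metavinculin. The log2 fold changes were 0.16 (SE 0.05, adjusted P = 0.877) with the exon and 0.08 (SE 0.06, adjusted P = 0.9999) without it.

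Among the transcripts of the 10 genes, 2 were at 0 in each library of one group and above 0 in each of the other, 1 in each direction, and both were picked out after their values were seen. They are 2 of the 50 transcripts of these genes that were above 0 in each library of a group, where 1021 of 61489 (1.66%) showed this pattern over all genes. PXN reads were spread over several coding transcripts, of which ENST00000424649 (1671 coding bases) held 40.2 ± 0.88% of PXN TPM in shARMC5 and 37.8 ± 4.67% in shNT, and ENST00000267257 (1815 coding bases) 20.5 ± 1.73 and 21.0 ± 1.36%. The PXN transcript at 0, ENST00000323871, of 5457 bases and annotated for nonsense-mediated decay, had 0 reads in each shARMC5 library and 114.3, 207.5 and 146.7 reads in the shNT libraries. Set against a floor of 3 counts over the shARMC5 group, its assigned reads were at least 159-fold lower, yet its edgeR adjusted P was 0.187. That floor covers counting error only, not how salmon divides reads among transcripts. None of the transcript's bases is its own, since all lie in at least 1 of the 21 other PXN transcripts. It held only 0.843 to 1.56% of PXN TPM in shNT. With a higher bar, which the PXN transcript also met, 26707 transcripts of all genes reached 50 reads in all 3 libraries of one group, and 55 of them were at 0 in all 3 of the other (0.206%), 27 in shARMC5 and 28 in shNT. The coding TNS2 transcript ENST00000314276 went the other way, with 13.7, 93.8 and 89.0 reads in shARMC5 and 0 in each shNT library (edgeR adjusted P = 0.461). In FERMT1 the main coding transcript ENST00000217289, with 74.4 to 88.0% of FERMT1 TPM, had 2122, 2578 and 1584 reads in shARMC5 and 2535, 2661 and 1940 in shNT, with a log2 fold change of -0.21 (SE 0.08, unadjusted P = 0.0460, adjusted P = 0.9999). The transcript for nonsense-mediated decay ENST00000536936 had 325.9, 289.3 and 221.4 reads in shARMC5 and 216.4, 156.6 and 123.3 in shNT, with a log2 fold change of 0.76 (SE 0.23, adjusted P = 0.790).

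In GRCh38 the genes lie apart from each other, with TNS1 at chr2:217799588-218033982, TNS3 at chr7:47275154-47582558 and ZYX at chr7:143381295-143391111, TLN1 at chr9:35696948-35732195 and VCL at chr10:73995193-74121363. TNS2 is at chr12:53046969-53064379 and PXN at chr12:120210439-120265771, FERMT2 at chr14:52857268-52952435, TNS4 at chr17:40475828-40501623 and FERMT1 at chr20:6074845-6123214. The library kit does not mark strand, so reads of genes that overlap on opposite strands cannot be told apart where their exons meet. Shared lengths below are of the whole genes, introns included. AP3M1 overlaps VCL by 1109 bases and had a log2 fold change of 0.00 (SE 0.04, adjusted P = 0.981). EPHA1 overlaps ZYX by 823 and had 0.04 (SE 0.06, adjusted P = 0.783). SPRYD3 overlaps TNS2 by 64 and had 0.03 (SE 0.05, adjusted P = 0.812).

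Promoter windows of 300 bases (250 before the start site and 50 after it, RefSeq on GRCh38.p14) were at hand for 8 of the 10 genes, 17 windows in all, and not for TNS4 and FERMT1. VCL and ZYX, the called genes with 1 window each that rose, are printed, with the TEAD match in capitals.
VCL promoter, chr10:73997866-73998165, plus strand: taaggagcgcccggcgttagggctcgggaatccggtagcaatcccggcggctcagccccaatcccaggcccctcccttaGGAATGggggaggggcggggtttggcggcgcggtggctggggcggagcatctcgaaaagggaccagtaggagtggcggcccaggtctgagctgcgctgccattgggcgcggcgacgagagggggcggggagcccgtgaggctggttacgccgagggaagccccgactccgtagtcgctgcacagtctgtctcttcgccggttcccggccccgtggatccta
ZYX promoter, chr7:143381095-143381394, plus strand: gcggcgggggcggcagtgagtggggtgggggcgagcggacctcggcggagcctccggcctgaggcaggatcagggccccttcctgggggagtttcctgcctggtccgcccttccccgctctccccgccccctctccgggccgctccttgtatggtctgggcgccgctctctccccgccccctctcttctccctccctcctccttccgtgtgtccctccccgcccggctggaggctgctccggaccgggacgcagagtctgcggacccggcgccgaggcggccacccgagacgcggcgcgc
Motifs of 3 factors known for cytoskeletal and adhesion genes were searched on both strands, and no matches overlapped. CATTCC, the core of the TEAD site, was found in 4 of the 17 windows, against 14.0% of 35116 windows of all genes: in VCL at 171 bases before the start site, in PXN at 67 bases before it, and in 2 of the TNS1 windows. TGANTCA, the AP-1 site, was in 0 of the 17 windows against 7.71% of all, and the SRF site (CArG box) in 0 against 1.29%. A match is a string of letters in the window and was not tested for binding.

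None of the 6 nearest relatives of these genes passed in edgeR, and 0 had an unadjusted P under 0.05. TLN2, the second talin, was at 31.5 ± 4.69 CPM in shARMC5 and 35.4 ± 1.68 CPM in shNT (log2 fold change -0.16, SE 0.10, adjusted P = 0.478). Its value was -0.05 without shARMC5 replicate 3 and -0.40 in DESeq2 with the length offset, where it passed (adjusted P = 0.0116). LPP, a zyxin relative, was at 56.8 ± 2.13 and 65.6 ± 8.72 CPM (-0.21, SE 0.10, adjusted P = 0.365), whereas DESeq2 called it at an adjusted P of 0.0828. In edgeR it passed without shNT replicate 2 (-0.29, adjusted P = 0.0569) and when every gene with at least 1 count was kept (adjusted P = 0.0022), and its value was -0.10 without shNT replicate 1 (adjusted P = 0.435). TRIP6, another zyxin relative, had 0.06 (SE 0.05). TGFB1I1 (Hic-5, a paxillin relative, 0.02), LPXN (leupaxin, -0.41 on 20 to 45 reads) and FERMT3 (the kindlin of blood cells, -0.19 on 27 to 56 reads) were low. Neither these nor TRIP6 passed with any tool or setting tried. With a library left out, LPXN ran from -0.59 to -0.23 and FERMT3 from -0.32 to -0.07. FERMT3 was -0.50 with the length offset.

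Beyond the 10 genes, 8 hand-made lists held 144 genes of the focal adhesion, including the 6 relatives, of which 128 were tested. The lists were made with earlier results of these data known. Their shares of called genes, here and below, are therefore not independent evidence. Of the 128 genes 26 were higher and 4 lower (23.4%, against 7.75% of all tested genes), with a median log2 fold change of 0.02. These 30 calls were 18 without shARMC5 replicate 2, 18 without shNT replicate 1 and 17 without shNT replicate 3. In the same order, 4.24, 3.90 and 4.91% of all tested genes were called. With the length offset they were 6, beside 1.70% of all tested genes. limma on log2 TPM called 2 of the 128 (ITGB5 and SLC3A2), beside 0.40% of all tested genes. The LIM domain and PDZ-LIM proteins, relatives in structure of zyxin and paxillin, had 7 higher and 1 lower of 19 tested (42.1%, against 7.75% of all genes) and a median of 0.10. By P these were led by PDLIM5 (log2 fold change 0.20, adjusted P = 0.0019), TES (0.21, adjusted P = 0.0026), a zyxin-binding protein of adhesions, and PDLIM2 (0.33, adjusted P = 0.0079). CSRP2 (0.22, adjusted P = 0.0142) and LASP1 (0.10, adjusted P = 0.0300) followed, and ABLIM1 was lower (-0.10, adjusted P = 0.0559). LASP1 lost its call without shARMC5 replicate 3 (adjusted P = 0.113) or shNT replicate 3 (0.125), and ABLIM1 when shARMC5 replicate 2 or 3 or shNT replicate 1 or 3 was left out (0.105 to 0.238). The 8 calls of this list were 5 without shARMC5 replicate 2 or shNT replicate 1 and 4 without shNT replicate 3. With the length offset 0 of the 19 passed in edgeR and 4 in DESeq2, which called 7 without it.

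The actin crosslinkers and actin-bound adhesion proteins had 7 higher and 0 lower of 23 tested (30.4%, against 7.75% of all genes, median 0.04). CNN3 (0.27, adjusted P = 4.51e-05) and CNN2 (0.17, adjusted P = 0.0011), the calponins of non-muscle cells, rose with the smallest P. They passed in each of the 15 alternatives on counts and not by limma on log2 TPM (adjusted P = 0.233 and 0.166). TPM1 (0.18, adjusted P = 0.0026), a tropomyosin, MYL12A (0.13, adjusted P = 0.0125), a myosin light chain, and PALLD (0.22, adjusted P = 0.0210), an actin-bundling partner of VASP, followed. PALLD did not pass without shARMC5 replicate 2 (0.19, adjusted P = 0.114), where 4 of the list's genes were called. With the length offset 3 were called, and TPM1 (adjusted P = 0.133), MYL12A (0.151) and PALLD (0.226) did not pass.

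The receptors themselves had 5 higher and 0 lower of 15 tested integrin genes (33.3%, against 7.75% of all genes, median 0.09). ITGB5 rose from 211.9 ± 1.20 to 260.0 ± 6.29 CPM (0.30, adjusted P = 5.34e-06) and ITGA3 from 184.2 ± 4.53 to 207.3 ± 0.91 CPM (0.17, adjusted P = 0.0015). ITGA1, a collagen receptor subunit, rose from 3.27 ± 0.14 to 5.08 ± 0.38 CPM (0.63, adjusted P = 0.0177). ITGA6 (0.10, adjusted P = 0.0464) and ITGB1 (0.09, adjusted P = 0.0774) passed narrowly, and each lost its call when shARMC5 replicate 1 or 2 or shNT replicate 1 or 3 was left out (0.123 to 0.305), and when libraries were scaled by size alone (0.106 and 0.16). With the length offset only ITGB5 of the 15 passed. The integrin regulators had 3 higher and 0 lower of 12 tested (25.0%, median 0.05): SLC3A2 (0.18, adjusted P = 0.0019), the heavy chain of CD98, TSPAN4 (0.24, adjusted P = 0.0210) and CD81 (0.10, adjusted P = 0.0405). TSPAN4 did not pass without shARMC5 replicate 2 or shNT replicate 1 (0.109 to 0.116), nor CD81 without shARMC5 replicates 1 or 3 or shNT replicates 1 or 3 (0.113 to 0.175). Neither passed with the length offset (0.372 and 0.109).

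**Figure D5:**
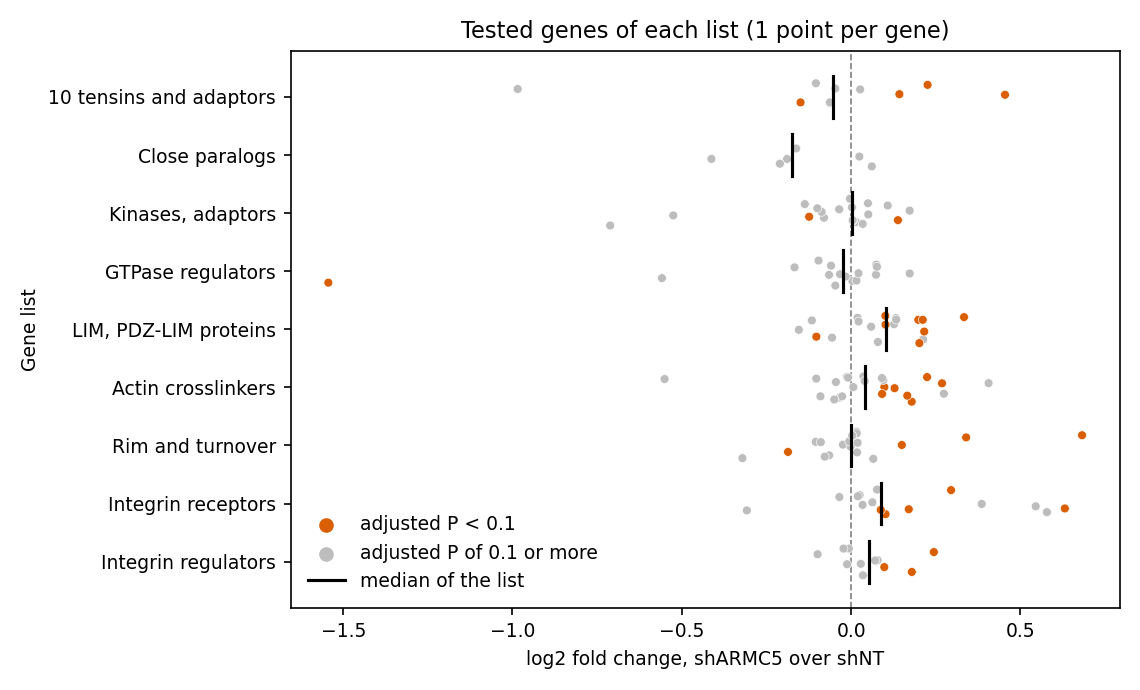
log2 fold change, shARMC5 over shNT, of each tested gene of the 10 tensins and adaptors and of the 8 other lists, with 1 point per gene, genes with an adjusted P under 0.1 in orange and the list median as a black line. The medians run from -0.18 (close paralogs) to 0.10 (LIM and PDZ-LIM proteins). The gene farthest to the left is ARHGAP35, whose value was -0.11 when transcripts with no match in the annotation were added.

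The adhesion kinases and their adaptors had 1 higher and 1 lower of 19 tested (median 0.00). BCAR1 (p130Cas) was higher (0.14, adjusted P = 0.0542) and DOCK1, which it recruits to activate RAC1, lower (-0.12, adjusted P = 0.0305). Both calls were lost with some libraries left out, while the log2 fold changes stayed close to those above. BCAR1 did not pass without shARMC5 replicates 2 or 3 or shNT replicates 1 or 3 (0.11 to 0.13, adjusted P 0.170 to 0.209). DOCK1 did not pass without shNT replicates 1 or 3 (-0.12 in each, adjusted P 0.103 to 0.106). With the length offset neither passed, at 0.15 for BCAR1 (adjusted P = 0.213) and -0.05 for DOCK1 (adjusted P = 0.624). The share of the 19 that passed, 10.5%, was near the 7.75% of all genes.

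The genes whose levels followed TNS4 most closely were found by Pearson's r of log2 CPM over the 6 libraries, among 9331 genes whose mean reached 10 CPM. They were SLC20A1 (r = 0.996), a phosphate transporter, GMFB (0.995), CYP26B1 (0.993), which breaks down retinoic acid, TINAGL1 (0.993), a matrix protein, and EPHA2 (0.993), a receptor tyrosine kinase. All 5 were higher in shARMC5, by log2 fold changes of 0.26, 0.29, 0.68, 0.29 and 0.34. Of the other 9 genes ZYX was the most like TNS4 (r = 0.97, rank 85), then VCL (r = 0.88, rank 554), while TNS3 had r = -0.80. The 6 points fall into the 2 groups, so these values are a description of how far each gene follows that split.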

How the data were processed

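Libraries were grouped by their titles (3 shARMC5, 3 shNT). The authors trimmed reads (cutadapt 4.2) and ran salmon 1.9.0 with its GC bias correction, on hg38 according to the submitters' processing notes. The deposited tables give estimated counts (expected counts) and TPM per transcript. Of 177456 transcripts, 165533 matched GENCODE 44 by identifier, and the others held 2.96 to 3.04% of reads. Estimated counts were added up by gene and rounded to whole numbers.

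The tested genes had 10 or more counts in 3 or more libraries. They were fitted with edgeR 4.0.16 (robust quasi-likelihood test, TMM, Benjamini-Hochberg over all 13737 genes) in R 4.3.3 and called at an adjusted P of 0.1, the threshold of the methods, which used DESeq2. Alternatives were DESeq2 1.42.0, limma 3.58.1 on log2(TPM + 0.1), a transcript length offset, other filters and scalings, a replicate block and leaving out each library. The fits were tested on simulated data. Named were the 10 members, 6 paralogs, up to 5 called genes per list and direction by smallest P, and 5 genes most like TNS4. Members and lists were chosen with earlier results of these data known. P-values measure the spread between these libraries, whose separate origin the labels do not give, and replicates of a group differed beyond sampling noise.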

Additional observations from a re-analysis of the deposited data

How the results depend on the processing

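TNS4 kept its call in 16 of 16 alternatives (log2 fold change 0.41 to 0.48, highest adjusted P 0.0255), ZYX in 15, VCL in 14 and TNS3 in 12, and PXN, TNS1, TNS2, FERMT2 and TLN1 were called in none. The count of called genes, 1064, was 234 with the transcript length offset, 568 in DESeq2 with that offset, 676 at an adjusted P under 0.05, 55 (0.40%) by limma on log2 TPM and 536 to 1074 with a library left out, the lowest without shNT replicate 1 and the next without shARMC5 replicate 2 (583) and shNT replicate 3 (675). The members called were 2 with the length offset (TNS4, ZYX), 1 by limma on log2 TPM (TNS4), where VCL, ZYX and TNS3 had adjusted P of 0.534, 0.156 and 0.404, and 3 to 5 with a library left out. With library size alone the split of called genes was 458 higher and 495 lower, against 610 and 454 with TMM, and the median of all genes was -0.02. The sign of TLN1 reversed with the length offset (0.11), in DESeq2 with it (0.11) and in limma (0.091), and ranged from -0.086 to 0.0079 with a library left out. TGFB1I1 reversed under the same 3 settings (-0.10, -0.10 and -0.11), with -0.017 to 0.091 when a library was left out. TNS1 (-0.16 to 0.075) and TNS2 (-0.11 to 0.0083) changed sign only without shNT replicate 1. The causes were not tested. Same-numbered libraries had correlations of deviations of 0.01, 0.13 and 0.17, and differently numbered ones ran from -0.19 to 0.06. The values of replicates 2 and 3 were thus the highest of all pairs. The labels do not say whether same-numbered libraries were made together. The main fit took the numbers as names only. A replicate block gave 1766 called genes and 5 called members, FERMT1 added (adjusted P 0.0995), with 47 calls of the 128 list genes, 12 for the LIM, 7 for the rim and 5 for the GTPase regulator list, and TLN2 (0.0969) and LPP (0.0322) among the paralogs. FERMT2 and TNS1, at under 50 reads, are limited by depth.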

Other observations

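Proteins of the adhesion rim and of adhesion turnover had 3 genes higher and 1 lower of 18 tested (22.2%, against 7.75% of all tested genes), with a median log2 fold change of 0.00. DAB2, an endocytic adaptor that binds integrin tails, rose from 7.43 ± 0.19 to 11.9 ± 0.52 CPM (SD, n = 3), a log2 fold change of 0.68 (SE 0.09, edgeR adjusted P = 0.000266), although with the transcript length offset it was 0.31 (adjusted P = 0.492). PHLDB2 (LL5beta), which anchors microtubules near adhesions, rose from 24.7 ± 1.17 to 31.3 ± 1.16 CPM (0.34, edgeR adjusted P = 0.0026), and PPFIBP1 (liprin beta-1) had 0.15 (edgeR adjusted P = 0.0098). KANK1, a talin-binding protein of the adhesion rim, was lower (-0.19, edgeR adjusted P = 0.0520) and lost that call without shARMC5 replicates 2 or 3 or shNT replicates 1 or 3 (0.127 to 0.253). With the length offset PHLDB2 (adjusted P = 0.12) and PPFIBP1 (0.254) did not pass either, nor KANK1 (0.393), and 1 of the list's genes was called.

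Of 16 tested regulators of small GTPases at adhesions 1 passed (6.25%, against 7.75% of all tested genes). ARHGAP35 (p190RhoGAP) had 10 to 48 reads per library and a log2 fold change of -1.54 (SE 0.41, edgeR adjusted P = 0.0374). When transcripts with no match in GENCODE 44 were added to the gene listed before them in the tables, it was -0.11 (adjusted P = 0.880). The value of -1.54 therefore covers matched transcripts only, and the main transcript of the gene may be among those with no match. ARHGAP35 also did not pass without shARMC5 replicates 1 or 2 or shNT replicate 3 (0.103 to 0.167). With the length offset it did not pass either (-1.43, edgeR adjusted P = 0.248).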
